A study of Homo sapiens with 9 samples.

Results

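The genes described here are 41 genes of homologous recombination, the Fanconi anaemia pathway and the checkpoint kinases that signal DNA damage. They were taken by name from the 45754 genes of the deposited table, and all 41 were found. RNA was sequenced from cells labelled as the H441 line, a human lung adenocarcinoma cell line, in 9 libraries that form 3 groups of 3. Control cells received the solvent alone, 0.1% DMSO, for 24 h. The other groups received the compound BSGL or the compound RSGL, each at 10 µM for 24 h, and both compounds are known here only by these code names. The labels do not say whether the libraries of a group came from separate cultures, and the treatment text speaks of a single replicate, so p-values measure the spread between these libraries, which may be technical. The cell line field of the labels names H441 throughout. The genotype field names other lung lines, H460 for control and BSGL libraries and A549 for RSGL libraries. By the genotype field, an effect of RSGL and a difference between lines cannot be told apart.

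Homologous recombination repairs a broken chromosome by copying an intact sister. Nucleases cut back the broken ends, BRCA2 and its partners ready the exposed strand to pair with the sister, and helicases and nucleases then separate the joined chromosomes. The Fanconi pathway detects a crosslink between the strands of DNA, marks FANCD2 and FANCI with ubiquitin through a complex of core proteins, and hands the damage on to recombination. The kinases ATM and ATR report breaks and stalled forks to CHEK2 and CHEK1, which hold the cell cycle. Recombination works mainly in the S and G2 phases of dividing cells, when a sister copy is present.

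Levels are given in FPKM, fragments per kilobase after division by library size, so that genes of different length can be compared. Each library held 16720414 to 18738947 fragments assigned to genes, and 12213 to 12338 genes reached 1 FPKM. Of 9 genes that mark the lung lineage of H441 cells, 0 reached 1 FPKM in 3 libraries and the highest value in any library was 1.24 FPKM, so the tissue label is not carried by these markers. Their sum was 1.46 to 2.29 FPKM in control, 1.36 to 1.59 in BSGL and 1.06 to 1.2 in RSGL libraries, and 1 of the 9, SFTA3, was at 0 in all libraries. Of 5 epithelial markers, 4 (KRT8, KRT18, KRT19 and CDH1) passed the filter and EPCAM did not. The 5 summed to 1065 to 1093 FPKM in control, 1056 to 1105 in BSGL and 741 to 779 in RSGL libraries. The highest single value among them in any library was 664.5 FPKM. Fibroblast markers (2 of 6 passing) summed to 5.62 to 6.36, 5.11 to 5.75 and 3.59 to 3.77 FPKM, and leukocyte markers (CD14 passing of 5, CD3E at 0 throughout) to 2.02 to 2.25, 1.29 to 1.99 and 0.186 to 0.516 FPKM, in the same order. Endothelial markers (0 of 4 passing) stayed below 0.1 FPKM in sum. The part of these marker differences in the results below was not tested.

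Promoter sequence was searched because most of the genes moved together in RSGL libraries. RefSeq promoters (GRCh38.p14, 250 bases before to 50 bases after the start) were found for 36 of the 41 genes, 50 promoters in all. The first motif was an E2F-type site, spelled TTTCCCGC, TTTCGCGC, TTTGGCGC or TTTGCCGC on either strand. It occurred in 7 of the 36 genes (19.4%), beside 3.99% of all 27305 genes with a promoter. Counted by promoter, the share was 14%, beside 3.31% of all 35116 promoters of the same length. These comparison sets include genes not expressed here, as only 12775 genes were tested. Motif shares among the tested genes were not computed, so expression and membership are mixed in each comparison. The 7 genes were EXO1, GEN1, RMI1, XRCC2, FANCA, FANCC and FANCD2, which are among the 26 genes with a promoter entry that fell in RSGL libraries. The motif was found in 0 of the 2 genes that rose and in 0 of the 7 that were not called. Sets this small can lack a motif that 19.4% of the genes hold, and no test between them was made. A second motif, TTTGAA or TTCGAA (the letters of the CHR element), occurred in 10.0% of these promoters and 16.4% of all promoters, and the third, CCAAT, in 46.0% and 34.6%. No occurrence of one motif overlapped one of another. A match describes these letters only, and binding of a factor was not measured.

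The E2F-type sites are shown first, 30 bases each, 5′ to 3′ on the gene's own strand, with the motif or its reverse complement in capitals. They lie at chr1:241848197-241848226 (EXO1, plus strand), chr2:17753859-17753888 (GEN1, plus strand), chr9:83980762-83980791 (RMI1, plus strand), chr7:152676102-152676131 (XRCC2, minus strand), chr3:10026424-10026453 (FANCD2, plus strand), chr16:89816801-89816830 (FANCA, minus strand) and, for FANCC on the minus strand, chr9:95317863-95317892 and chr9:95317737-95317766. In EXO1, GEN1 and FANCD2 the motif begins within 4 bases of a RefSeq start, and in XRCC2 21 bases after it.
EXO1: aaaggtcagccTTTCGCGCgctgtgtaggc
GEN1: cagttgcggggTTTCGCGCcgccggagtct
RMI1: ggcgcgagcgcGCGGCAAAtcgggcgggaa
XRCC2: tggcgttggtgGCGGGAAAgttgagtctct
FANCD2: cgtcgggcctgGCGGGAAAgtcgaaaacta
FANCA: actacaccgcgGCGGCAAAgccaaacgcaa
FANCC, first site: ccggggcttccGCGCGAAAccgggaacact
FANCC, second site: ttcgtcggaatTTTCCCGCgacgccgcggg

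CCAAT occurred in 14 of the 26 genes that fell, among them GEN1, RMI1 and FANCA, and in 2 of the 7 not called. The 2 genes that rose, MUS81 and FANCF, also held CCAAT, in capitals below, and no E2F-type site. These sites are at chr11:65860183-65860212 on the plus strand for MUS81 and at chr11:22625898-22625927 and chr11:22625858-22625887 on the minus strand for FANCF.
MUS81: gtgtccctcccaCCAATacgtttgcacccg
FANCF, first site: catgcatttcgaCCAATagcattgcagaga
FANCF, second site: ttcgcggatgttCCAATcagtacgcagaga

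RSGL libraries held less RNA of most of these genes, and none of them passed the test in BSGL libraries. With RSGL, 31 of the 40 genes tested fell, 2 rose (the nuclease MUS81 and the Fanconi adaptor FANCF) and 7 were not called (PALB2, RAD51D, RAD50, RBBP8, SLX4, FANCE and ATM). RSGL moved much of the transcriptome: of 12775 genes tested, 27.6% were called lower and 27.2% higher, or 54.8% in either direction. The counts by role below are to be read beside these shares, and no role group was tested as a set. Differences are given on the log2(FPKM + 1) scale, tested with limma and called at a Benjamini-Hochberg adjusted p under 0.05 over all genes tested. The median difference was −0.40 over the 40 genes, or 0.755-fold on that scale, beside −0.00 over all genes, and 11.4% of all genes had a difference at or below the median of the 40. The falls were moderate, from −0.92 for EXO1 to −0.20 for FANCL. Of the 40 genes, 28 lay at or below −0.25 (21.0% of all genes) and 13 at or below −0.5 (8.0% of all genes). In bulk RNA, fewer cells of a type and less RNA per cell cannot be told apart. By the genotype field of the labels, the same holds for RSGL and the cell line.

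**Figure D1:**
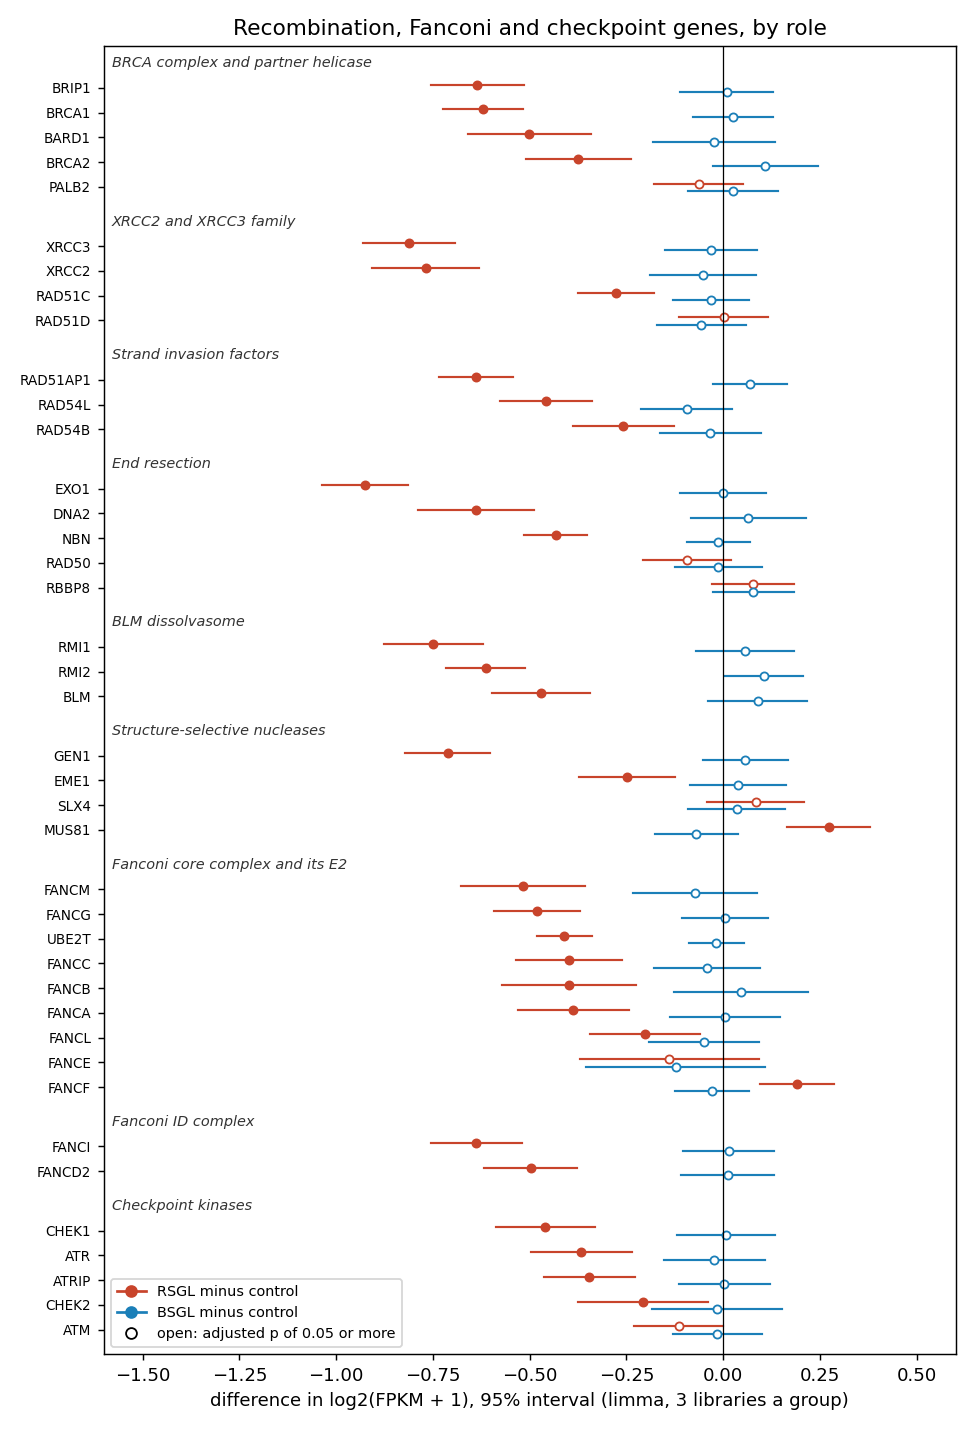
Difference from control in log2(FPKM + 1) for the 40 genes tested, grouped by role, for RSGL (red) and BSGL (blue). Points are limma estimates, bars are 95% intervals over 3 libraries a group, and open points had an adjusted p of 0.05 or more. RSGL points lie between −0.92 and 0.27 with 33 filled, while BSGL points lie between −0.12 and 0.11 with 0 filled.

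Control levels of the 41 genes ran from 0.506 FPKM for RAD51B to 62.9 FPKM for UBE2T, with 15 genes at 10 FPKM or more and 12 under 5 FPKM. Across the 40 genes the control level and the RSGL difference had a Spearman rho of −0.26, a description over genes that share the same libraries and a scale that understates the change of low genes. The lowest fragment count behind any value was 110 and the highest was 3584. By position, 5 of the 41 genes lie on chromosome 17.

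End resection opens the way for recombination, and its 5 genes divided. EXO1 (gene ID 9156, chr1:241847967-241889939 in GRCh38), the exonuclease of long-range resection, stood at 12.7, 13.4 and 13.2 FPKM in control libraries, 12.3, 13.7 and 13.3 in BSGL and 6.79, 6.30 and 6.20 in RSGL. All RSGL libraries were below every other library, the lowest ratio among the 41 genes at 49.1% of the control mean. The difference was −0.92 (SE 0.0493, limma adjusted p = 2.36e-07). DNA2, the nuclease and helicase of the second long-range route, measured 7.24, 7.93 and 8.12 FPKM in control, 7.76, 9.0 and 7.77 in BSGL and 4.75, 4.32 and 4.82 in RSGL libraries. The RSGL group again lay wholly below both others, with a difference of −0.64 (SE 0.0665, limma adjusted p = 2.64e-05). NBN, a subunit of the complex that first binds a break, fell from a mean of 23.4 ± 0.427 to 17.1 ± 0.592 FPKM (SD, n = 3).

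The remaining resection genes did not pass the test. RAD50, the partner of NBN in that complex, was at 20.5, 22.0 and 20.1 FPKM in control, 21.2, 21.1 and 19.8 in BSGL and 20.1, 20.1 and 18.3 in RSGL libraries. The groups overlapped, and the difference of −0.09 had a 95% interval from −0.21 to 0.02 (limma adjusted p = 0.144). RBBP8, which encodes the CtIP protein that starts resection, read 10.6, 11.1 and 10.4 FPKM in control, 11.5, 11.2 and 11.3 in BSGL and 11.9, 10.6 and 11.5 in RSGL libraries. Control and RSGL values overlapped here too, with a difference of 0.08 (95% interval −0.03 to 0.18, limma adjusted p = 0.199).

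In the BRCA group 4 of 5 genes fell, beside 27.6% of all genes, and PALB2 was not called. BRIP1, the helicase that binds BRCA1, held 3.34, 3.50 and 3.34 FPKM in control, 3.40, 3.55 and 3.31 in BSGL and 1.84, 1.95 and 1.70 in RSGL libraries. RSGL values were 53.9% of control in the mean and none reached the control range, with a difference of −0.64 (SE 0.0536, limma adjusted p = 5.76e-06). BRCA1 (gene ID 672, chr17:43044295-43125483), the tumour suppressor that steers breaks toward recombination, had 15.2, 15.9 and 15.1 FPKM in control, 15.6, 16.0 and 15.5 in BSGL and 9.90, 10.2 and 9.02 in RSGL libraries. Its RSGL libraries were likewise apart from all others, at −0.62 (SE 0.0462, limma adjusted p = 2.46e-06). BARD1, the obligate partner of BRCA1, fell from 3.27 ± 0.338 to 2.02 ± 0.166 FPKM (SD, n = 3), and BRCA2, the tumour suppressor that readies the exposed strand, from 2.32 ± 0.123 to 1.56 ± 0.111 FPKM. PALB2, the bridge between BRCA1 and BRCA2, showed 3.82, 3.90 and 3.58 FPKM in control, 3.83, 3.88 and 3.84 in BSGL and 3.60, 3.76 and 3.33 in RSGL libraries. RSGL values overlapped control and lay below BSGL, and the difference from control was −0.06 (95% interval −0.18 to 0.05, limma adjusted p = 0.328).

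The XRCC2 and XRCC3 family, paralogs that act in recombination in complexes of their own, split further. XRCC3 (gene ID 7517, chr14:103697611-103715486) gave 21.3, 19.8 and 18.1 FPKM in control, 19.8, 18.6 and 19.5 in BSGL and 10.8, 10.7 and 10.9 in RSGL libraries. No RSGL library came near the other groups, and the difference was −0.81 (SE 0.0530, limma adjusted p = 9.73e-07). XRCC2 (gene ID 7516, chr7:152646498-152676165) gave 7.64, 8.89 and 8.14 FPKM in control, 7.76, 8.53 and 7.41 in BSGL and 4.47, 4.37 and 4.38 in RSGL libraries, with the RSGL group below both others. That difference was −0.77 (SE 0.0612, limma adjusted p = 3.88e-06). RAD51C, which pairs with XRCC3, fell less, from 22.2 ± 1.14 to 18.2 ± 0.630 FPKM (SD, n = 3), a difference of −0.28. RAD51D (gene ID 5892, chr17:35099792-35119869), which pairs with XRCC2, was at 8.47, 9.03 and 9.02 FPKM in control, 8.31, 8.71 and 8.37 in BSGL and 9.55, 8.59 and 8.42 in RSGL libraries. Its groups overlapped, with a difference of 0.00 (95% interval −0.11 to 0.12, limma adjusted p = 0.99).

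RAD51B, the remaining paralog, was below the filter of 1 FPKM in 3 libraries and had no test in the main fit. It read 0.463, 0.550 and 0.504 FPKM in control, 0.523, 0.479 and 0.426 in BSGL and 0.726, 0.745 and 0.734 in RSGL libraries, from 110 to 192 fragments each. The RSGL libraries were above all others, at 145% of the control mean. A fit without the filter gave a difference of 0.21 (limma adjusted p = 0.0316), and one on values rescaled to a common sum gave 0.31 (limma adjusted p = 0.0629).

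**Figure D2:**
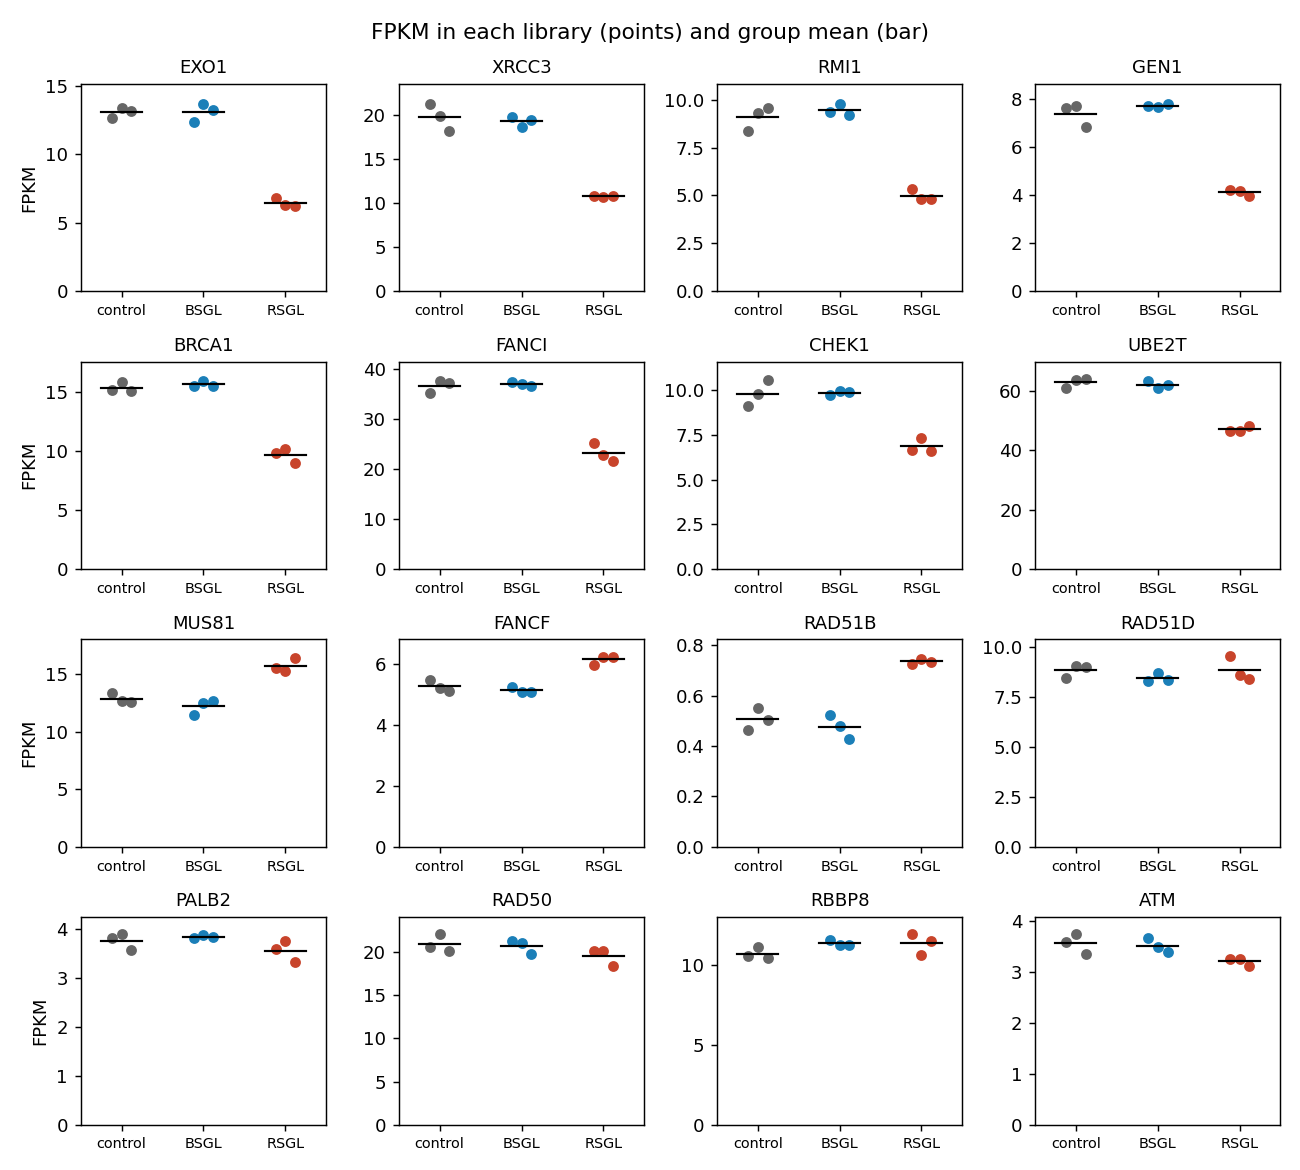
FPKM of 16 genes in each library, with points for the 3 libraries of control (grey), BSGL (blue) and RSGL (red) and a bar at each group mean; every vertical axis starts at 0. EXO1 drops from a control mean of 13.1 to 6.43 FPKM, MUS81 and FANCF sit higher in RSGL libraries, and RAD51D, PALB2, RAD50 and RBBP8 overlap between control and RSGL.

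Genes for strand invasion all fell, 3 of 3, beside 27.6% of all genes. RAD51AP1, which helps the broken strand pair with its target, had 15.1, 16.6 and 15.2 FPKM in control, 16.6, 16.2 and 16.5 in BSGL and 9.83, 9.51 and 9.66 in RSGL libraries. Its RSGL values formed a narrow band under both other groups, at −0.64 (SE 0.0424, limma adjusted p = 1.10e-06). RAD54L, the motor that drives strand invasion, had 6.53, 6.00 and 5.73 FPKM in control, 5.70, 5.51 and 5.68 in BSGL and 4.36, 3.99 and 4.12 in RSGL libraries. RSGL was lowest throughout, and BSGL libraries were also just under the control range, although that BSGL difference of −0.09 was not called (limma adjusted p = 0.831). The RSGL difference was −0.46 (SE 0.0527, limma adjusted p = 5.29e-05), and the related motor RAD54B fell by 0.26, from 2.67 ± 0.0758 to 2.06 ± 0.0948 FPKM (SD, n = 3).

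Joined chromosomes are separated by the BLM dissolvasome or by nucleases. The 3 dissolvasome genes measured here all fell, beside 27.6% of all genes. RMI1 (gene ID 80010, chr9:83980722-84004074), a scaffold subunit, stood at 8.35, 9.31 and 9.55 FPKM in control, 9.38, 9.79 and 9.22 in BSGL and 5.33, 4.81 and 4.84 in RSGL libraries. All 3 RSGL values were under the lowest value of the other groups, with a difference of −0.75 (SE 0.0569, limma adjusted p = 2.81e-06). RMI2, the smaller scaffold subunit, stood at 13.3, 13.2 and 14.6 FPKM in control, 14.5, 14.7 and 15.2 in BSGL and 8.59, 8.82 and 8.38 in RSGL libraries. RSGL was again apart, at −0.61 (SE 0.0453, limma adjusted p = 2.31e-06), and BLM itself, the helicase, fell from 6.62 ± 0.343 to 4.5 ± 0.248 FPKM (SD, n = 3).

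The 4 nuclease genes went in different directions. GEN1 (gene ID 348654, chr2:17753687-17785920), a resolvase of Holliday junctions, had 7.64, 7.69 and 6.86 FPKM in control, 7.72, 7.66 and 7.81 in BSGL and 4.20, 4.19 and 3.99 in RSGL libraries. RSGL libraries were well below the others, at −0.71 (SE 0.0488, limma adjusted p = 1.35e-06). EME1 (gene ID 146956, chr17:50373220-50381479), the non-catalytic partner of MUS81, had 12, 12.8 and 12.9 FPKM in control, 12.7, 12.1 and 14.1 in BSGL and 10.6, 10.4 and 10.2 in RSGL libraries. The RSGL group was lower without overlap, by a smaller margin of −0.25 (SE 0.0554, limma adjusted p = 0.00367). MUS81 (gene ID 80198, chr11:65860244-65866443), the catalytic subunit, had 13.3, 12.7 and 12.6 FPKM in control, 11.5, 12.5 and 12.7 in BSGL and 15.6, 15.3 and 16.4 in RSGL libraries. Here all RSGL libraries were above all others. RSGL libraries lay wholly above control in 2 of the 40 genes, beside 30.4% of all genes. The rise of MUS81 was 0.27 (SE 0.0478, limma adjusted p = 0.000859), to 122% of the control mean. SLX4, the scaffold that gathers several nucleases, read 2.90, 3.04 and 2.67 FPKM in control, 2.86, 3.12 and 2.90 in BSGL and 3.11, 3.22 and 2.97 in RSGL libraries. Its groups overlapped, with a difference of 0.08 (95% interval −0.04 to 0.21, limma adjusted p = 0.236).

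Of 9 genes for the Fanconi core complex and its ubiquitin-conjugating enzyme, 7 fell, FANCF rose and FANCE was not called. Over all genes, 27.6% were called lower and 27.2% higher. FANCM, the translocase that finds the crosslink, held 2.33, 2.30 and 1.91 FPKM in control, 1.86, 2.11 and 2.10 in BSGL and 1.17, 1.21 and 1.27 in RSGL libraries. Its RSGL libraries were clear of both groups at −0.52 (SE 0.0715, limma adjusted p = 0.000178). FANCG, a core scaffold, held 22.0, 20.6 and 20.4 FPKM in control, 21.0, 19.7 and 22.5 in BSGL and 14.9, 14.8 and 14.6 in RSGL libraries. RSGL values lay close together and below the rest, at −0.48 (SE 0.0498, limma adjusted p = 2.51e-05). UBE2T, the enzyme that supplies the ubiquitin, fell from 62.9 ± 1.65 to 47.1 ± 0.933 FPKM (SD, n = 3). The core subunits FANCA, FANCB and FANCC fell by 0.39 to 0.40, to 72.2%, 61.0% and 70.9% of their control means. FANCL, the ligase subunit, fell by 0.20 (limma adjusted p = 0.0213). FANCL is a weak call: its adjusted p was 0.0760 without control replicate 2, 0.0722 without RSGL replicate 1 and 0.0704 without RSGL replicate 2.

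FANCF (gene ID 2188, chr11:22622533-22625841), an adaptor within the core complex, went the other way, with 5.48, 5.22 and 5.10 FPKM in control, 5.25, 5.08 and 5.08 in BSGL and 5.98, 6.23 and 6.24 in RSGL libraries. Every RSGL library exceeded the other groups, by a margin of 0.19 (SE 0.0426, limma adjusted p = 0.00374). FANCE, which recruits FANCD2 to the complex, showed 3.22, 3.06 and 3.74 FPKM in control, 3.37, 2.68 and 2.92 in BSGL and 3.07, 3.38 and 2.41 in RSGL libraries. These values were mixed between groups, and the difference of −0.14 had the widest interval among the 40 genes, −0.37 to 0.09 (limma adjusted p = 0.283).

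Both genes of the FANCI and FANCD2 clamp, the target of the core complex, fell, beside 27.6% of all genes. FANCI (gene ID 55215, chr15:89243954-89317132) had 35.1, 37.6 and 37.1 FPKM in control, 37.3, 37.0 and 36.5 in BSGL and 25.2, 22.8 and 21.6 in RSGL libraries. FANCD2 had 11.1, 10.2 and 10.6 FPKM in control, 10.8, 11.2 and 10.2 in BSGL and 7.71, 7.32 and 6.77 in RSGL libraries. In both genes no RSGL library reached a control or BSGL value. The differences were −0.64 for FANCI (SE 0.0526, limma adjusted p = 4.90e-06) and −0.50 for FANCD2 (SE 0.0537, limma adjusted p = 3.41e-05).

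Among the checkpoint kinases and their partner, 4 of 5 genes fell, beside 27.6% of all genes. CHEK1 (gene ID 1111, chr11:125624910-125676259), the kinase that ATR activates, measured 9.09, 9.80 and 10.6 FPKM in control, 9.71, 9.94 and 9.90 in BSGL and 6.65, 7.34 and 6.59 in RSGL libraries. Its RSGL range was below the others, at −0.46 (SE 0.0568, limma adjusted p = 8.51e-05). ATR, the kinase of stalled forks, measured 7.35, 6.92 and 8.22 FPKM in control, 7.43, 7.54 and 7.07 in BSGL and 5.78, 5.55 and 5.41 in RSGL libraries, with RSGL lowest. That difference was −0.37 (SE 0.0584, limma adjusted p = 0.000462), and ATRIP, the partner that brings ATR to single-stranded DNA, fell by 0.35. CHEK2, the kinase downstream of ATM, fell by 0.21 (limma adjusted p = 0.0390). The call for CHEK2 was lost in more alternatives than that for FANCL: the adjusted p was 0.0519, 0.0822 and 0.105 without control replicate 1, 2 or 3, 0.0523 without BSGL replicate 3, and 0.106 and 0.128 without RSGL replicate 1 or 2. ATM, the kinase of double-strand breaks, read 3.59, 3.74 and 3.36 FPKM in control, 3.67, 3.49 and 3.39 in BSGL and 3.26, 3.26 and 3.11 in RSGL libraries. The RSGL libraries did not overlap control, as in 32 of the 40 genes on the lower side (30.8% of all genes), but the difference of −0.12 (SE 0.0514) was not called (limma adjusted p = 0.0827). It was called after quantile normalization (−0.15, limma adjusted p = 0.0291) and by limma-voom on recovered fragments (−0.15, adjusted p = 0.0215).

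Because partners in a complex had moved unequally, 13 ratios of FPKM were taken within each library. The differences of the single genes were known by then, so the ratios restate them and add no separate support. For single genes, RSGL libraries lay wholly below control in 30.8% of all genes and wholly above in 30.4%. The share for ratios of other gene pairs was not computed. Such a ratio shows unequal change and not which gene changed. With 3 libraries against 3 an exact permutation test cannot go below 0.10, so no test is given. EME1 to MUS81 was 0.977 ± 0.0699 in control, 1.06 ± 0.0838 in BSGL and 0.661 ± 0.0383 in RSGL libraries (SD, n = 3). XRCC2 to RAD51D was 0.930 ± 0.0467, 0.933 ± 0.0471 and 0.499 ± 0.0278 in the same order, and XRCC3 to RAD51C was 0.892 ± 0.110, 0.888 ± 0.0388 and 0.594 ± 0.0167. Each of these ratios was lower in every RSGL library than in any control or BSGL library. The same held for BRCA2 to PALB2 (control mean 0.618, RSGL mean 0.439), NBN to RAD50 (1.12 and 0.877), RMI1 to BLM (1.37 and 1.11) and MRE11, the nuclease that RAD50 and NBN bind, to RAD50 (0.281 and 0.212). FANCF to FANCG was the reverse case, at 0.251 ± 0.00171 in control and 0.417 ± 0.0145 in RSGL libraries, without overlap.

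The other 5 ratios overlapped between control and RSGL. BARD1 to BRCA1 was 0.213 ± 0.0274 in control and 0.208 ± 0.0116 in RSGL libraries (SD, n = 3). FANCD2 to FANCI was 0.292 ± 0.0224 and 0.314 ± 0.00792, FANCA to FANCG was 0.266 ± 0.00884 and 0.274 ± 0.0155, and ATRIP to ATR was 0.689 ± 0.0910 and 0.686 ± 0.0541. RMI2 to BLM was 2.08 ± 0.194 and 1.91 ± 0.0784. No test of equality was made for these ratios.

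**Figure D3:**
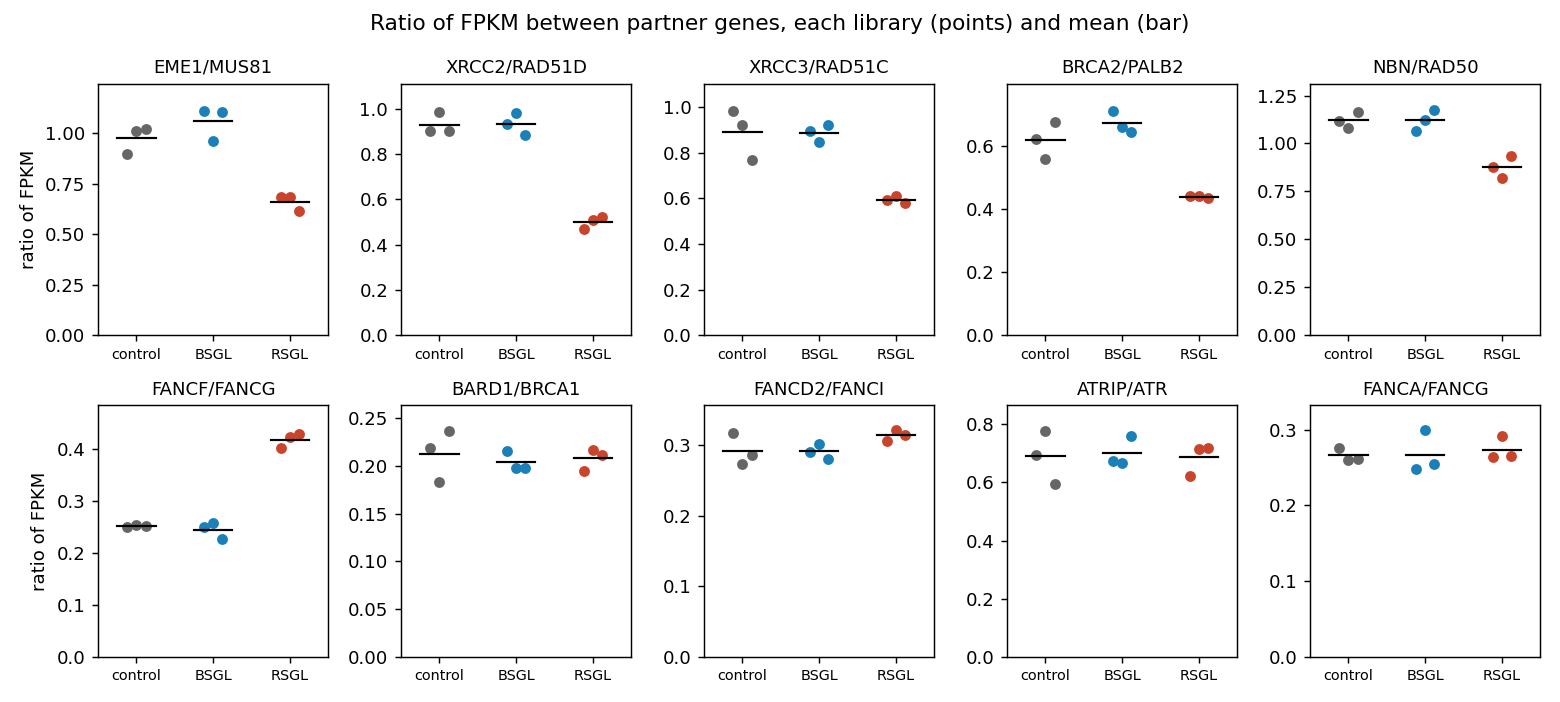
Ratio of FPKM for 10 of the 13 pairs of partner genes in each library (points) with the group mean (bar), for control (grey), BSGL (blue) and RSGL (red); every vertical axis starts at 0. EME1/MUS81, XRCC2/RAD51D, XRCC3/RAD51C, BRCA2/PALB2 and NBN/RAD50 are lower and FANCF/FANCG is higher in all RSGL libraries, while the last 4 pairs overlap between control and RSGL.

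With BSGL, 0 of the 40 genes were called against control, beside 0.0861% of all genes (11 of 12775). Differences ran from −0.12 for FANCE to 0.11 for BRCA2, with a median of 0.00. At an unadjusted p under 0.05 there was 1 gene of the 40, RMI2 at 0.11 (limma adjusted p = 0.72), beside 6.71% of all genes, and limma-voom on recovered fragments also called 0 of the 40. The 95% interval lay within −0.25 and 0.25 for 39 of the 40 genes, and that of FANCE reached −0.35. Changes of the size seen with RSGL in EXO1 or XRCC3 were thus outside these intervals, while changes within them were not excluded. BRCA2 libraries, at 2.37, 2.18 and 2.42 FPKM in control and 2.73, 2.56 and 2.47 with BSGL, did not overlap, nor did those of RBBP8 or RAD54L. Such a split of libraries occurred in 12.8% of all genes.

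RSGL and BSGL were given at the same dose and time and were compared directly, as the only pair of compounds. Of the 40 genes 29 were lower with RSGL, beside 27.5% of all genes, and 2 were higher, beside 26.5%, with a median of −0.41. The differences were −0.92 for EXO1 (SE 0.0493, limma adjusted p = 2.64e-07), −0.80 for RMI1 (SE 0.0569, adjusted p = 1.90e-06) and −0.78 for XRCC3 (SE 0.0530, adjusted p = 1.42e-06). MUS81 was higher with RSGL by 0.34 (SE 0.0478, limma adjusted p = 0.000207) and FANCF by 0.22 (SE 0.0426, limma adjusted p = 0.00164). The 9 genes not called were the 7 named for RSGL against control, with FANCL (−0.15, 95% interval −0.29 to −0.01, limma adjusted p = 0.0663) and CHEK2 (−0.19, 95% interval −0.36 to −0.02, limma adjusted p = 0.0532). For RBBP8 the compounds differed by −0.00 (95% interval −0.11 to 0.10) and for RAD51D by 0.06 (−0.06 to 0.17). The 3 comparisons share libraries and are not independent.

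Genes of the same pathways outside the 41 were counted from lists made by role, with earlier results of these data known. With RSGL, 36 of 59 tested genes fell, 4 rose and 19 were not called. Falls made up 61.0% and rises 6.78%, beside 27.6% and 27.2% of all genes. Of 23 tested genes in a list of other recombination genes, 12 fell, 3 rose and 8 were not called, with a median difference of −0.21. The largest falls in that list were those of POLQ, the polymerase of the alternative end-joining route (5.55 to 3.42 FPKM in the mean, −0.57), and MCM8, a helicase of recombination (9.04 to 5.84 FPKM, −0.55). The largest rises were in ZSWIM7, a recombination factor (12.1 to 18.2 FPKM, 0.54), and SFR1, another recombination factor (7.60 to 9.80 FPKM, 0.32).

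Of 15 other Fanconi pathway genes tested, 9 fell, 1 rose and 5 were not called, with a median of −0.16. Here and for the signalling list below, the shares of all genes were 27.6% lower and 27.2% higher. UHRF1, listed as a sensor of crosslinks and best known for maintaining DNA methylation, fell from 29.8 to 16.2 FPKM (−0.84), and CENPX, a histone-fold partner of FANCM, from 89.3 to 52.2 FPKM (−0.76). ERCC1, a subunit of a nuclease that unhooks crosslinks, was the gene that rose, from 14.3 to 19.4 FPKM (0.41). Of 21 other damage signalling genes 15 fell, 0 rose and 6 were not called, with a median of −0.39. H2AX, the histone variant phosphorylated around breaks, fell from 100.4 to 41.6 FPKM (−1.25), and CLSPN, the mediator between ATR and CHEK1, from 5.96 to 3.20 FPKM (−0.73).

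The lists for 4 other repair pathways, with 48 tested genes in all, gave 22 falls, 9 rises and 17 genes not called, with a median of −0.12. Falls made up 45.8% and rises 18.8%, beside 27.6% and 27.2% of all genes with RSGL. End joining had 4 lower and 2 higher of 10 genes, with PRKDC, its catalytic kinase, at −0.55 and LIG4, its ligase, at 0.21. Mismatch repair had 4 lower and 2 higher of 7. Base excision repair had 10 lower and 1 higher of 20, and its glycosylase NEIL3 fell from 20.8 to 7.69 FPKM (−1.33), while the polymerase POLB rose by 0.31. Nucleotide excision repair had 4 in each direction of 11. With BSGL, 0 genes of these 7 lists were called against control by limma, beside 0.0861% of all genes. At an unadjusted p under 0.05 there were 4 of the 59 pathway genes and 2 of the 48 repair genes, beside 6.71% of all genes. No test of one list against another was made.

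**Figure D4:**
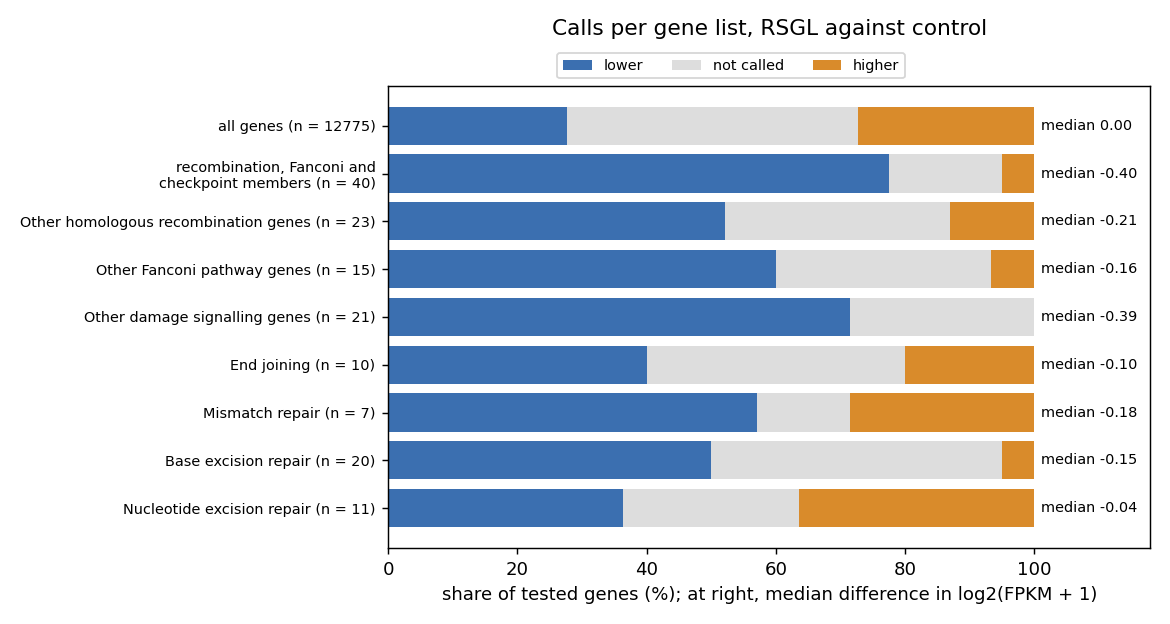
Share of the tested genes of each list that were called lower (blue), higher (orange) or not called (grey) for RSGL against control, with the median difference in log2(FPKM + 1) printed at the right. The 40 recombination, Fanconi and checkpoint genes have 77.5% lower and 5.0% higher, beside 27.6% and 27.2% of all 12775 genes.

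Markers of proliferation differed along with these genes. Of 8 such genes 6 fell, 1 rose and 1 was not called with RSGL, with a median difference of −0.92. Over all genes, 27.6% fell and 27.2% rose. MKI67, a marker of cycling cells, was at a mean of 40.5 ± 1.38 FPKM in control, 41.4 ± 0.622 in BSGL and 16.6 ± 2.58 in RSGL libraries (SD, n = 3), and PCNA, the sliding clamp of replication, at 188 ± 7.28, 186 ± 5.11 and 97.9 ± 1.98 FPKM. CCND1, the G1 cyclin D1, rose by 0.21, and CCNE1, cyclin E1, was not called (−0.09, limma adjusted p = 0.276). With BSGL, 0 of the 8 were called by limma, and 0 had an unadjusted p under 0.05, beside 0.0861% and 6.71% of all genes. The part of the proliferation genes in the falls described above was not tested.

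Whether reads were counted by strand is not stated in the labels or the file, so reads of overlapping genes may be shared. Overlap was taken between whole gene spans, introns included, and overlap of exons was not computed. By span, 26 of the 41 genes overlap another gene of the table and 12 overlap a protein-coding gene at 1 FPKM or more. XRCC3 overlaps KLC1 on the opposite strand by 3941 bases, and KLC1 went the other way, from 39.5 to 46.2 FPKM. FANCC overlaps C9orf3 on the opposite strand by 49211 bases, and C9orf3 fell from 9.19 to 2.68 FPKM. ATRIP overlaps TREX1 on the same strand by 136 bases, and TREX1 fell from 5.22 to 3.37 FPKM. RMI1 overlaps HNRNPK on the opposite strand by 61 bases, and HNRNPK, at 270.5 FPKM in control and 191.3 in RSGL libraries, was far above it in level. The overlap of MUS81 with another coding gene, EFEMP2, was 3 bases. The part of overlapping reads in these values was not tested.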

How the data were processed

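The 9 libraries were made from total RNA extracted with TRIzol, using a NEBNext Ultra RNA kit, per the labels' protocols. Without giving roles, the submitters' processing notes name DESeq2 1.16.1, featureCounts 1.5.0-p3 and HISAT2 2.0.5. The values are FPKM as deposited by the authors, per the file headers, scaled to library size, with gene positions that lie on GRCh38. FPKM multiplied by gene length gave whole fragments (100% of values under 300 fragments within 0.01), which served for depth and for 1 alternative.

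Genes of at least 1 FPKM in at least 3 libraries (12775) were analysed as log2(FPKM + 1) in limma 3.58.1 (R 4.3.3) with trend and robust options, 1 term per group over all 9 libraries and Benjamini-Hochberg adjustment, after the test had been tested on simulated data. Calls used an adjusted p under 0.05. For each comparison 20 alternatives were run. The protocols state no pairing of libraries by replicate number, and the main fit used none.

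The members and lists were chosen with earlier results of these data known. Of 194 list entries, 8 were matched by an older symbol with the same gene ID (among them H2AX and CENPX). Values of every library are given, per role, for the 2 called members with the largest RSGL difference, every member that rose and every tested member not called. Of the other pathway genes the 2 largest called changes in each direction per list are named, and of the end joining and base excision lists the largest in each direction; some genes under this rule are not reported here, and the 2 other repair lists are given by counts. BRCA2 values with BSGL, the overlapping genes and the proliferation genes were named after their values were seen.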

Additional observations from a re-analysis of the deposited data

How the results depend on the processing

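Over the 40 genes and 20 alternatives, differences between RSGL and control kept their side of the threshold in 786 of 800 fits, with 12 calls lost (CHEK2 and FANCL) and 2 gained (ATM), and no called difference changed sign. Sign changes of differences that were not called were not counted. With BSGL 800 of 800 stayed uncalled, and between the compounds 793 of 800 were on the same side with 7 gained (ATM, CHEK2 and FANCL). CHEK2 was lost without the filter (adjusted p = 0.101) and without trend and robust options (0.0508), and FANCL without the filter (0.0568). The median difference of the genes between RSGL and control moved from −0.40 to −0.49 with a pseudocount of 0.1, −0.45 with 0.5, −0.49 on values rescaled to a common sum and −0.50 by limma-voom, and ran from −0.43 to −0.40 when 1 library was left out. The number of all genes called for BSGL, 11, was 0 without the filter, 0 on a common sum, 0 without trend and robust options, 0 with only the compared groups, 0 with the replicate block and 31 by limma-voom, and ran from 0 to 8 when 1 library was left out. With the replicate block, 6792 genes were called for RSGL against control in place of 7005, and 31 of the members were lower and 2 higher as without it. Same-numbered libraries had correlations of their deviations from −0.212 to 0.121, beside −0.108 to 0.154 for libraries of different number. With 3 libraries a group, these correlations cannot decide whether libraries were paired. Where a library was left out, the remaining ones are taken to vary like the other groups. Genes under 1 FPKM, such as RAD51B, are limited by few fragments.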
